A study of Arabidopsis thaliana with 24 samples.

Results

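The genes described are 8 loci of Arabidopsis thaliana that encode pattern recognition receptors, the kinases that act with them and a marker of their early signalling. They were chosen by locus, 8 of the 32678 loci in the count tables, with no measured value in the rule but with earlier results of these data known. All 8 had enough counts to be tested. FLS2 (AT5G46330), EFR (AT5G20480), CERK1 (AT3G21630) and LYK5 (AT2G33580) are receptors. BAK1 (AT4G33430) and SOBIR1 (AT2G31880) are co-receptors, BIK1 (AT2G39660) is a cytoplasmic kinase, and FRK1 (AT2G19190) is a receptor-like kinase gene used as a marker of the response to flagellin.

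Messenger RNA of whole rosettes was sequenced from ozone-exposed and control plants of 4 lines, Te, CT101, Col-0 and C24. Exposed plants had ozone at 350 ppb for 2 h, and all plants were 3 weeks old. The series text calls Te and C24 accessions that differ in ozone sensitivity, Col-0 is the reference accession, and the labels do not say what CT101 is or what air the controls had. Each of the 8 groups has 3 libraries, which the labels call biological replicates of RNA from 10 to 15 pooled rosettes. No mutation, transgene or other agent is given for any group. Because the labels do not say whether the 3 came from separate pools or exposures, p-values measure the spread between these libraries, which may be technical.

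Pattern recognition receptors sit in the plasma membrane and bind molecules that microbes carry, such as bacterial flagellin or fungal chitin. A receptor that has bound its ligand joins a co-receptor kinase, and the complex acts through cytoplasmic kinases such as BIK1, which phosphorylates the NADPH oxidase that makes reactive oxygen in the cell wall space. Ozone enters leaves through stomata and breaks down to reactive oxygen in that same space.

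The libraries held 13633768 to 25789925 counts, and 20554 loci were tested. Levels are given as CPM, counts scaled to a common library size with TMM factors. The 3 leaf photosynthetic markers summed to 14110 to 28320 CPM in ozone libraries and 24850 to 40780 CPM in control libraries, and the 4 guard cell markers to 37.3 to 68.6 CPM in ozone libraries and 45.6 to 71.9 CPM in controls. No leaf or guard cell marker was at 0 in a group. Root markers summed to at most 0.363 CPM in ozone libraries and 0.616 CPM in controls, and flower markers to at most 1.396 CPM in ozone libraries and 2.59 CPM in controls. In whole rosettes, fewer cells of a type and less RNA per cell cannot be told apart. On the first principal component, with 58.1% of the variance, replicate 2 was the lowest ozone library of every line. It stood furthest apart in C24, at 41.4 against 95.1 and 108.7 for replicates 1 and 3. The C24 controls lay at -58.26 to -50.11, nearer the ozone libraries than all controls of Te, CT101 and Col-0, at -123.6 to -86.18. The part of this position over all genes in the differences of the described genes between C24 and the other lines was not tested.

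In the TAIR10 coordinates given with the counts, with exons counted in RefSeq, the receptors are FLS2 on chromosome 5 at 18791736 to 18795546 (2 exons), EFR on chromosome 5 at 6922480 to 6925887 (2 exons), CERK1 on chromosome 3 at 7615385 to 7618581 (12 exons) and LYK5 on chromosome 2 at 14219623 to 14221861 (1 exon). The co-receptors are BAK1 on chromosome 4 at 16086311 to 16090777 (12 exons) and SOBIR1 on chromosome 2 at 13554894 to 13556977 (1 exon). The other members are BIK1 on chromosome 2 at 16531688 to 16533931 (6 exons) and FRK1 on chromosome 2 at 8326049 to 8329944 (13 exons). Upstream sequences are shown for FRK1 and BAK1, which each hold a pair of W-boxes (the element that WRKY transcription factors bind), for BIK1, which holds 1, and for LYK5, which holds none. They are the 300 bases before the gene start in NCBI RefSeq (build TAIR10.1), 5′ to 3′ on the strand of the gene, at chr2:8329945-8330244 (minus strand), chr4:16090833-16091132 (minus), chr2:16531227-16531526 (plus) and chr2:14222255-14222554 (minus). Capitals mark TTGACC or TTGACT, or the same words on the other strand, GGTCAA or AGTCAA.
FRK1: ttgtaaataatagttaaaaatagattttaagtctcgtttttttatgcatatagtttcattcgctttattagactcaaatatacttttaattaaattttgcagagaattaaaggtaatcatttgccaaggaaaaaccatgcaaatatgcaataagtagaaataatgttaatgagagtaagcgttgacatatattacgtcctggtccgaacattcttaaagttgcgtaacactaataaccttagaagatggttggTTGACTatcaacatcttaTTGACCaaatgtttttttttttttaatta
BAK1: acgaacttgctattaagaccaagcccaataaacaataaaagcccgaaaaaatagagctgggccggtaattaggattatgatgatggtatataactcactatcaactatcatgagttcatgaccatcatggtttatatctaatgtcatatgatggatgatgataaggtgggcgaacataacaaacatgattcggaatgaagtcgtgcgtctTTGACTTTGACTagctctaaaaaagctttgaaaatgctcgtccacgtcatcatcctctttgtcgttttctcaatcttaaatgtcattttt
BIK1: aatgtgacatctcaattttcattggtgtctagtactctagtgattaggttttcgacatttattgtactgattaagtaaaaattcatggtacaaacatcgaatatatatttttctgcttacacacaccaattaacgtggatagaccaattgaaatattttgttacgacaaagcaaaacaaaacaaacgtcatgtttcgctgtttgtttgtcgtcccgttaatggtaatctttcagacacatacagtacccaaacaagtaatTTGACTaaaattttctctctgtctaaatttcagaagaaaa
LYK5: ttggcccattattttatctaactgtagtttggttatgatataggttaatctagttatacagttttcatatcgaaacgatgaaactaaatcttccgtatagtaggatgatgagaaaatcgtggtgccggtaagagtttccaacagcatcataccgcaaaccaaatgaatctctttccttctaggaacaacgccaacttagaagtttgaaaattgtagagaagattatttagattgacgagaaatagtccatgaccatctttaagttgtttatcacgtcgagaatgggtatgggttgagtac

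In FRK1 the W-boxes began 47 and 29 bases before the gene start. BAK1 had TTGACT at 90 and, directly joined to it, at 84. BIK1 had 1 at 40, CERK1 had 1 at 109, FLS2 had 1 at 271, and SOBIR1 had GGTCAA at 111. EFR and LYK5 had none in this window. Their RefSeq starts, 6921509 for EFR and 14222254 for LYK5, lie further from the deposited ones, 6922480 and 14221861, than in the other members. Windows before the deposited starts were not searched. At least 1 of these words stood in 6 of the 8 members and in 32.3% of the 27443 protein-coding windows of this length, and at least 2 in 2 members and in 7.9% of the windows. These matches describe letters, and no binding was measured.

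All 8 genes rose under ozone in all 4 lines, by a median log2 fold change of 2.92 in Te, 2.56 in CT101, 2.72 in Col-0 and 2.16 in C24. The medians over all tested genes lay between -0.03 and -0.01. All 8 were called higher in each line (edgeR's quasi-likelihood test, Benjamini-Hochberg adjusted p under 0.05 over all 20554 genes), where of all tested genes 32% for Te, 32.9% for CT101, 30% for Col-0 and 25.6% for C24 were called higher. In no member and no line did ozone and control libraries overlap, though how often this holds over all tested genes was not counted. The leaf marker sums went the other way in each line without overlap, and their part in the rise was not tested.

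**Figure D1:**
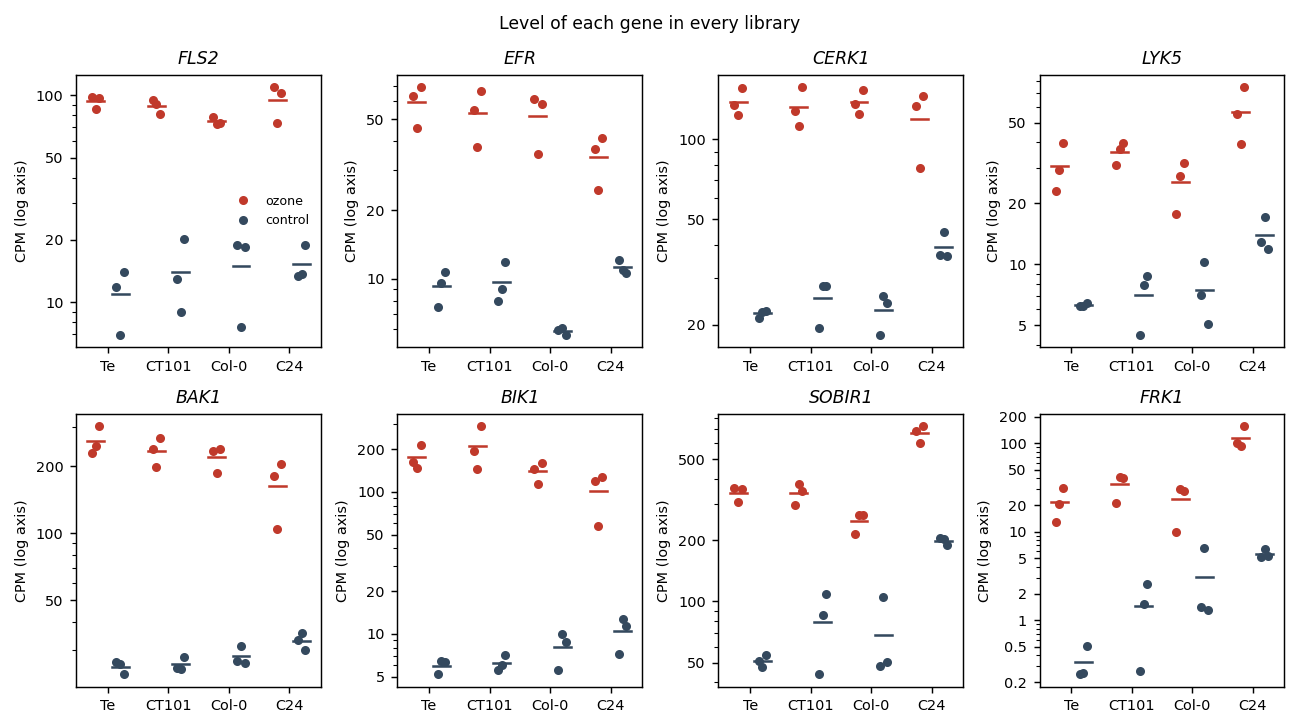
Level of each of the 8 genes in CPM (log axis) in every library, with 3 ozone libraries (red) left of 3 control libraries (dark blue) in each line. Points are libraries and short lines are group means. In every panel and line the ozone libraries lie above the controls, and C24 libraries are the highest of their treatment for SOBIR1.

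FLS2, the receptor of flagellin, lay between 72.65 and 109.7 CPM in the 12 ozone libraries and between 6.93 and 20.3 CPM in the 12 controls. In Te it averaged 93.5 ± 6.59 CPM under ozone and 10.9 ± 3.62 CPM in controls (SD, n = 3 each, as for all group means below). In C24 the FLS2 means were 95.1 ± 19.3 CPM under ozone and 15.3 ± 3.04 CPM in controls. Ozone levels of neighbouring lines overlapped except that Col-0 lay under CT101, and control levels overlapped between all neighbours in the order of their means. The log2 fold changes of FLS2 were 3.1 ± 0.32 in Te, 2.66 ± 0.31 in CT101, 2.33 ± 0.31 in Col-0 and 2.64 ± 0.31 in C24 (± SE, edgeR, adjusted p at most 2.87e-06).

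EFR, the receptor of the bacterial elongation factor EF-Tu, was at 63.5, 45.6 and 69.3 CPM in Te ozone libraries, against 7.52, 9.63 and 10.8 CPM in Te controls. The CT101 values were 54.7, 37.8 and 66.8 CPM in CT101 ozone libraries, against 8.04, 9.06 and 11.9 CPM in CT101 controls. Replicate 2 was the lowest ozone library in both of these lines. For EFR the Col-0 values were 61.4, 35.3 and 58.2 CPM in Col-0 ozone libraries, against 5.99, 6.12 and 5.67 CPM in Col-0 controls. In C24, EFR was at 36.9, 24.6 and 41.4 CPM in C24 ozone libraries, against 12.1, 10.97 and 10.7 CPM in C24 controls. All 3 Col-0 controls lay under every other control, and C24 had the lowest ozone mean although its range overlapped those of CT101 and Col-0. EFR had log2 fold changes of 2.68 ± 0.25 in Te, 2.46 ± 0.25 in CT101, 3.12 ± 0.26 in Col-0 and 1.61 ± 0.24 in C24 (± SE, edgeR, adjusted p at most 2.15e-05). A stretch of EFR exon matched AT1G09995 with 97.2% identity over 106 bases, so reads from there could be shared.

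CERK1, a kinase with LysM domains that is needed for the response to chitin, was at 134.6, 123.3 and 156 CPM in Te ozone libraries, against 21.3, 22.3 and 22.6 CPM in Te controls. The CT101 values were 127.5, 112.5 and 157.7 CPM in CT101 ozone libraries, against 19.4, 28.1 and 28.1 CPM in CT101 controls. Te and CT101 overlapped within each treatment. For CERK1 the Col-0 values were 135.5, 125.1 and 153.9 CPM in Col-0 ozone libraries, against 18.3, 25.7 and 24.1 CPM in Col-0 controls. In C24, CERK1 was at 133.2, 78.1 and 146.3 CPM in C24 ozone libraries, against 36.7, 44.7 and 36.5 CPM in C24 controls. The C24 controls lay above all other controls, while the ozone ranges of all neighbouring lines overlapped. CERK1 had log2 fold changes of 2.65 ± 0.21 in Te, 2.4 ± 0.21 in CT101, 2.6 ± 0.21 in Col-0 and 1.6 ± 0.2 in C24 (± SE, edgeR, adjusted p at most 2.31e-06).

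LYK5, a LysM receptor that binds chitin and acts with CERK1, averaged 30.6 ± 8.38 CPM under ozone and 6.33 ± 0.121 CPM in controls of Te. The CT101 means were 35.9 ± 4.43 CPM under ozone and 7.05 ± 2.26 CPM in controls, and the Col-0 means 25.5 ± 7.21 CPM under ozone and 7.47 ± 2.61 CPM in controls. C24 had the highest means, 56.5 ± 17.96 CPM under ozone and 13.97 ± 2.802 CPM in controls, and its controls did not overlap those of any other line. The log2 fold changes of LYK5 were 2.27 ± 0.3 in Te, 2.35 ± 0.3 in CT101, 1.76 ± 0.29 in Col-0 and 2.01 ± 0.29 in C24 (± SE, edgeR, adjusted p at most 4.22e-05).

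BAK1, the co-receptor that FLS2 and EFR recruit, was at 229.5, 246.9 and 302.6 CPM in Te ozone libraries, against 26.4, 25.7 and 23.2 CPM in Te controls. The CT101 values were 238, 198.2 and 267.9 CPM in CT101 ozone libraries, against 24.9, 24.6 and 27.9 CPM in CT101 controls. These ranges overlapped in both treatments. For BAK1 the Col-0 values were 233.8, 185.6 and 237.9 CPM in Col-0 ozone libraries, against 26.7, 31.2 and 26.2 CPM in Col-0 controls. In C24, BAK1 was at 180.2, 104.2 and 205.3 CPM in C24 ozone libraries, against 33.04, 35.8 and 29.8 CPM in C24 controls. All 3 Te ozone libraries lay above all 3 C24 ozone libraries, and replicate 2 of C24 was the lowest ozone library of all. BAK1 had log2 fold changes of 3.37 ± 0.2 in Te, 3.19 ± 0.2 in CT101, 2.97 ± 0.2 in Col-0 and 2.31 ± 0.19 in C24 (± SE, edgeR, adjusted p at most 2.61e-08). BAK1 is overlapped by 78 bases of AT4G33420 on the other strand in RefSeq, though not in the deposited coordinates.

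SOBIR1, the co-receptor of receptor-like proteins that lack a kinase domain, was at 360.3, 307.7 and 357.3 CPM in Te ozone libraries, against 51.2, 47.7 and 54.5 CPM in Te controls. The CT101 values were 298.2, 376.6 and 349.1 CPM in CT101 ozone libraries, against 43.8, 85.9 and 108.1 CPM in CT101 controls. The CT101 controls were spread, with replicates 2 and 3 high. For SOBIR1 the Col-0 values were 214.7, 266.3 and 265.1 CPM in Col-0 ozone libraries, against 48.2, 105.5 and 50.6 CPM in Col-0 controls. In C24, SOBIR1 was at 687.5, 599.8 and 725.3 CPM in C24 ozone libraries, against 204, 201.5 and 188.4 CPM in C24 controls. Every C24 library lay above every library of the same treatment in the other lines, and replicate 2 was high among the Col-0 controls. SOBIR1 had log2 fold changes of 2.74 ± 0.28 in Te, 2.11 ± 0.27 in CT101, 1.87 ± 0.27 in Col-0 and 1.76 ± 0.27 in C24 (± SE, edgeR, adjusted p at most 2.44e-05).

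The counts of SOBIR1 are uncertain because AT2G31890 overlaps it by 478 bases on the opposite strand. RefSeq also places the antisense RNA AT2G08475 over 189 exon bases of SOBIR1. The library kit does not mark strand, so reads from the overlap cannot be told apart. AT2G31890 fell under ozone, with 29.5 ± 3.18 CPM under ozone and 48.6 ± 7.71 CPM in controls of Te, and 29.9 ± 1.26 CPM under ozone and 43.7 ± 3.34 CPM in controls of C24. Its log2 fold changes were -0.72 in Te, -0.8 in CT101, -0.65 in Col-0 and -0.55 in C24 (edgeR, adjusted p at most 0.00107).

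BIK1, the cytoplasmic kinase downstream of FLS2 and EFR, was at 163.1, 146.9 and 215 CPM in Te ozone libraries, against 5.18, 6.42 and 6.31 CPM in Te controls. The CT101 values were 194.1, 144.5 and 289.8 CPM in CT101 ozone libraries, against 5.595, 6.04 and 7.04 CPM in CT101 controls. CT101 had the widest spread of ozone values, with replicate 3 highest. For BIK1 the Col-0 values were 145.5, 113.1 and 159.4 CPM in Col-0 ozone libraries, against 5.59, 10.02 and 8.77 CPM in Col-0 controls. In C24, BIK1 was at 118.5, 57.2 and 127.8 CPM in C24 ozone libraries, against 7.16, 12.8 and 11.3 CPM in C24 controls. Te lay above C24 under ozone and below it in controls, with no overlap in either treatment. BIK1 had log2 fold changes of 4.87 ± 0.34 in Te, 5.07 ± 0.34 in CT101, 4.09 ± 0.33 in Col-0 and 3.28 ± 0.31 in C24 (± SE, edgeR, adjusted p at most 1.35e-07). These are 29.3-fold, 33.6-fold, 17.04-fold and 9.695-fold rises in that order, the largest of the 8 genes in CT101 and Col-0 and the largest after FRK1 in Te and C24.

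FRK1, which is switched on soon after flagellin is sensed, was at 12.9, 20.7 and 31.1 CPM in Te ozone libraries, against 0.244, 0.255 and 0.518 CPM in Te controls. The CT101 values were 21.3, 41.96 and 40.4 CPM in CT101 ozone libraries, against 0.266, 1.53 and 2.58 CPM in CT101 controls. The Te controls were 5, 5 and 10 counts, and replicate 1 of the CT101 controls was 6 counts. For FRK1 the Col-0 values were 9.86, 30.6 and 28.9 CPM in Col-0 ozone libraries, against 1.396, 6.61 and 1.29 CPM in Col-0 controls. In C24, FRK1 was at 100, 92.1 and 155.5 CPM in C24 ozone libraries, against 5.12, 6.38 and 5.33 CPM in C24 controls. Every C24 ozone library lay above every other ozone library, while replicate 2 of the Col-0 controls lay above all 3 C24 controls and the other Col-0 controls below them. FRK1 had log2 fold changes of 5.97 ± 0.78 in Te, 4.58 ± 0.64 in CT101, 2.84 ± 0.57 in Col-0 and 4.37 ± 0.58 in C24 (± SE, edgeR, adjusted p at most 0.00031). Without Col-0 control replicate 2 the Col-0 value was 4.1 (adjusted p = 2.8e-05). FRK1 is overlapped by 175 bases of AT2G19180 on the other strand in RefSeq, though not in the deposited coordinates.

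**Figure D2:**
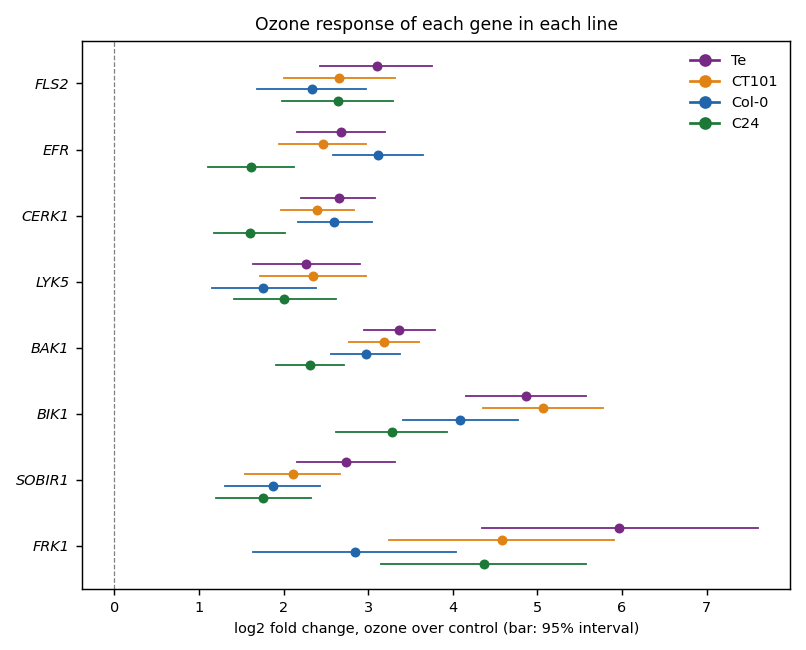
Log2 fold change of ozone over control for each gene in each line, from the edgeR fit (points) with 95% intervals (bars). Every interval lies above 0, BIK1 and FRK1 reach the largest values, and C24 has the smallest estimate for EFR, CERK1, BAK1, BIK1 and SOBIR1.

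Per kilobase of exon, SOBIR1 had the highest level of the 8 genes in every group and FRK1 the lowest in every control group. The SOBIR1 level was 164.0 ± 14.2 CPM per kb under ozone and 24.5 ± 1.63 CPM per kb in controls of Te, and 321.9 ± 30.9 CPM per kb under ozone and 95.01 ± 4.0 CPM per kb in controls of C24. BIK1 was next under ozone in Te, at 98.7 ± 20.1 CPM per kb, and had 3.37 ± 0.388 CPM per kb in Te controls, where CERK1, at 10.7 ± 0.339 CPM per kb, followed SOBIR1.

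Control libraries were compared to see whether the lines start from different levels. Against C24, 4 of the 8 genes were lower in each of Te, CT101 and Col-0, and none was higher. Of all tested genes 17.7% for Te, 10.4% for CT101 and 14.7% for Col-0 were called lower and 12.4% for Te, 6.18% for CT101 and 11.7% for Col-0 higher, in comparisons that share the 3 C24 control libraries. The calls were CERK1, LYK5 and SOBIR1 in each line, FRK1 in Te and CT101, and EFR in Col-0. SOBIR1 differed from C24 by -1.95 ± 0.27 (edgeR, adjusted p = 1.23e-05) in Te, -1.32 ± 0.26 (edgeR, adjusted p = 0.00126) in CT101 and -1.54 ± 0.27 (edgeR, adjusted p = 0.000179) in Col-0 on the log2 scale (± SE), and no alternative ended these calls. LYK5 differed by -1.14 ± 0.3 (edgeR, adjusted p = 0.00637) in Te, -0.99 ± 0.3 (edgeR, adjusted p = 0.0254) in CT101 and -0.89 ± 0.3 (edgeR, adjusted p = 0.0298) in Col-0. CERK1 differed by -0.83 ± 0.2 (edgeR, adjusted p = 0.00312) in Te, -0.64 ± 0.2 (edgeR, adjusted p = 0.0293) in CT101 and -0.79 ± 0.2 (edgeR, adjusted p = 0.00521) in Col-0. EFR differed by -0.92 ± 0.25 (edgeR, adjusted p = 0.0095) in Col-0.

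Single libraries ended some of these calls. In CT101, leaving out CT101 control replicate 1 gave -0.74 (adjusted p = 0.15) for LYK5 and -0.48 (adjusted p = 0.17) for CERK1, and leaving out C24 control replicate 2 gave -0.8 (adjusted p = 0.13) and -0.53 (adjusted p = 0.13). The LYK5 call in Col-0 was lost without C24 control replicate 2 (-0.71, adjusted p = 0.14), Col-0 control replicate 1 (-0.85, adjusted p = 0.089) or Col-0 control replicate 3 (-0.67, adjusted p = 0.15). The leaf markers summed to 35520 to 40780 CPM in Te controls, 32120 to 37830 CPM in CT101 controls, 33580 to 34790 CPM in Col-0 controls and 24850 to 31600 CPM in C24 controls. Of the 3 markers only GLDP1 was called against C24 controls in each line (by 1.05 for Te, 0.65 for CT101 and 0.88 for Col-0, edgeR, adjusted p at most 0.0369), RBCS1A was called in Te (0.41, adjusted p = 0.0121), and CAB1 was called in none of the 3 lines (adjusted p at least 0.25). Their part in the differences was not tested.

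FRK1 was lower in Te than in C24 controls, with a log2 difference of -4.03 ± 0.83 (edgeR, adjusted p = 0.000927). In CT101 its difference was -1.96 ± 0.65 (edgeR, adjusted p = 0.0436), a call lost in 17 of 32 alternatives, among them each C24 control and CT101 control replicates 1 (-1.45, adjusted p = 0.2) and 2 (-2.0, adjusted p = 0.098) left out. In Col-0 it was -0.8 with a 95% interval of -2.03 to 0.43 (edgeR, adjusted p = 0.355), and -2.06 (adjusted p = 0.025) without Col-0 control replicate 2. Te controls were below Col-0 controls, with a log2 difference of -3.23 ± 0.87 (edgeR, adjusted p = 0.013). FRK1 was the only member called there in the edgeR fit over all libraries, where 15.8% of all genes were called. This call was lost without Col-0 control replicate 2 (-1.97, adjusted p = 0.18), Te control replicate 1 (-3.06, adjusted p = 0.056) or Te control replicate 2 (-3.08, adjusted p = 0.052).

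In the fit over all libraries no member was called by edgeR between CT101 and Te controls or between CT101 and Col-0 controls, where 5.23% and 15.7% of all genes were called, and DESeq2 called none. The edgeR p before adjustment was under 0.05 for SOBIR1 (0.026) and FRK1 (0.045) in CT101 against Te and for EFR (0.011) in CT101 against Col-0. For EFR in Te against Col-0, also not called in that fit, it was 0.019. With the replicate number as a block within each treatment, edgeR also called FLS2 (-0.54, adjusted p = 0.025), BAK1 (-0.39, adjusted p = 0.018) and BIK1 (-0.78, adjusted p = 0.0014) lower in Te than in C24. That fit also called BAK1 (-0.35, adjusted p = 0.044) and BIK1 (-0.72, adjusted p = 0.0041) lower in CT101 than in C24 and EFR higher in Te than in Col-0 (0.64, adjusted p = 0.00097). EFR was also called higher in CT101 than in Col-0 controls there (0.69, adjusted p = 0.00042), with the block over all libraries (0.68, adjusted p = 0.019) and with the compared libraries alone (0.7, adjusted p = 0.028), all by edgeR. Leaving out replicate 2 of the C24, CT101 or Col-0 ozone libraries gave the same EFR call (0.7 each, adjusted p at most 0.041). SOBIR1 was called higher in CT101 than in Te controls without CT101 control replicate 1 (0.93, adjusted p = 0.022). The BIK1 call in Te against C24 arose in 11 of 32 alternatives, among them DESeq2 (-0.78, adjusted p = 0.044), and that of BAK1 in 5 of 32. EFR was also called higher in Te than in Col-0 with the block over all libraries (edgeR, 0.64, adjusted p = 0.029). The block within each treatment called 6285 of 20554 genes for CT101 minus C24 controls. It called 5500 and 5240 for Te and CT101 minus Col-0 controls.

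**Figure D3:**
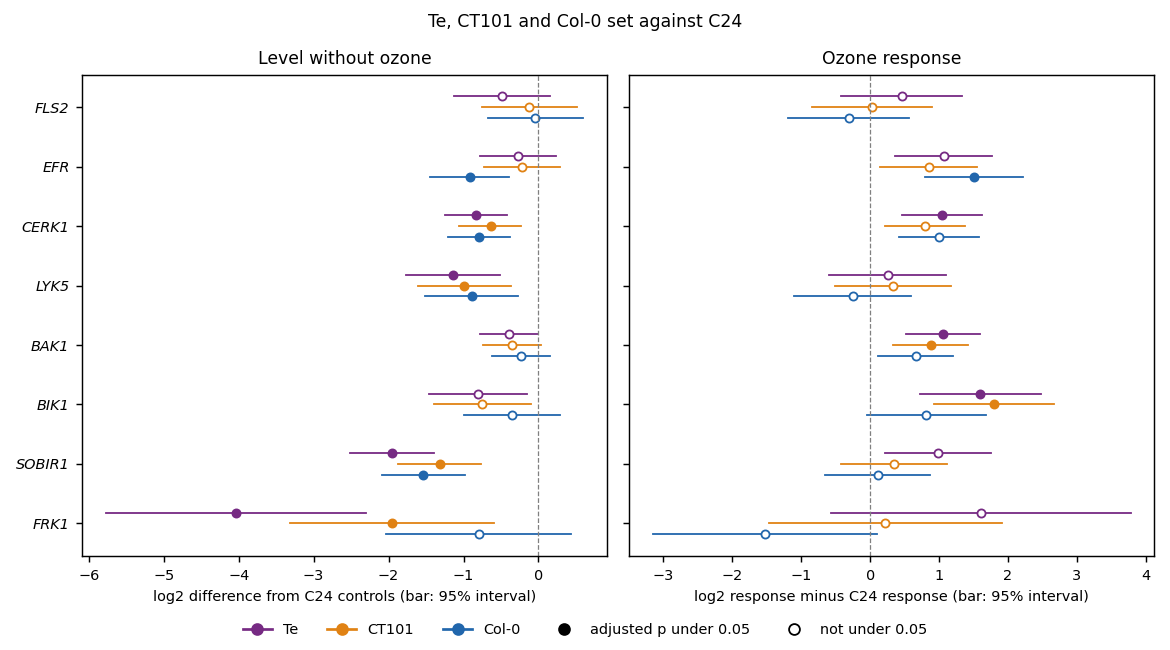
Log2 difference of Te, CT101 and Col-0 from C24 for each gene, in control libraries (left) and in the ozone response (right), from the edgeR fit with 95% intervals; filled points have an adjusted p under 0.05. All control estimates lie below 0, and the called response differences, for EFR, CERK1, BAK1 and BIK1, lie above 0.

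The difference of the ozone responses was tested as an interaction. Against C24, 3 members responded more strongly in Te, 2 did in CT101 and 1 did in Col-0, and none less strongly. Of all tested genes 7.77% for Te, 7.09% for CT101 and 2.86% for Col-0 had a higher response and 1.81% for Te, 2.61% for CT101 and 0.506% for Col-0 a lower one, in comparisons that share the 6 C24 libraries. BIK1 responded more strongly by 1.6 ± 0.42 (edgeR, adjusted p = 0.0205) in Te and 1.8 ± 0.42 (edgeR, adjusted p = 0.0131) in CT101 on the log2 scale (± SE). For BIK1 in Col-0 the difference was 0.81 with a 95% interval of -0.05 to 1.68 (edgeR, adjusted p = 0.397). BAK1 responded more strongly by 1.06 ± 0.26 (edgeR, adjusted p = 0.0126) in Te and 0.88 ± 0.26 (edgeR, adjusted p = 0.0382) in CT101, and its Col-0 value was 0.66 with a 95% interval of 0.12 to 1.2 (edgeR, adjusted p = 0.214). CERK1 was called in Te, at 1.04 ± 0.28 (edgeR, adjusted p = 0.0209), and had 0.8 ± 0.28 (edgeR, adjusted p = 0.0715) in CT101 and 1.0 ± 0.28 (edgeR, adjusted p = 0.0505) in Col-0. EFR was called in Col-0, at 1.51 ± 0.34 (edgeR, adjusted p = 0.016), and had 1.07 ± 0.34 (edgeR, adjusted p = 0.0503) in Te and 0.85 ± 0.34 (edgeR, adjusted p = 0.11) in CT101. DESeq2 also called EFR in Te (1.06, adjusted p = 0.033) and CERK1 in CT101 (0.82, adjusted p = 0.043) and Col-0 (0.99, adjusted p = 0.025). With the compared libraries alone, edgeR called EFR in Te (1.07, adjusted p = 0.04) but CERK1 in neither CT101 nor Col-0.

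C24 ozone replicate 2 was the lowest C24 ozone library for all 8 genes. Without it the Te differences were 1.31 (adjusted p = 0.036) for BIK1, 0.82 (adjusted p = 0.016) for BAK1 and 0.82 (adjusted p = 0.035) for CERK1 (edgeR). Those of CT101 were then 1.5 (adjusted p = 0.024) for BIK1 and 0.63 (adjusted p = 0.076) for BAK1, and that of EFR in Col-0 was 1.31 (adjusted p = 0.033). The BAK1 call in CT101 was lost in 9 of 32 alternatives, among them C24 control replicates 1 and 2, each CT101 control and CT101 ozone replicates 1 and 3 left out. In Te, the BIK1 call was lost without C24 control replicate 2, Te control replicate 1 or Te ozone replicate 3 (adjusted p 0.063, 0.053 and 0.063, edgeR), and the CERK1 call without C24 control replicate 2 or Te ozone replicate 3 (adjusted p 0.061 and 0.064). EFR in Col-0 had 1.36 (adjusted p = 0.052) without Col-0 ozone replicate 1, and BIK1 in CT101 had 1.77 (adjusted p = 0.065) when the compared libraries were fitted alone.

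With the replicate number as a block within each treatment, edgeR called EFR, CERK1, BAK1 and BIK1 in all 3 lines against C24, and no other member. The EFR differences in that fit were 1.09 (adjusted p = 7.3e-05) in Te and 0.86 (adjusted p = 0.00055) in CT101. Those of CERK1 were 0.83 (adjusted p = 0.00084) in CT101 and 1.04 (adjusted p = 0.00029) in Col-0. In Col-0, BAK1 had 0.69 (adjusted p = 0.012) and BIK1 had 0.87 (adjusted p = 0.013).

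FLS2, LYK5, SOBIR1 and FRK1 were not called for a difference in response from C24 in the fit over all libraries, and their 95% intervals hold values on both sides of 0 except for SOBIR1 in Te. The FLS2 intervals were -0.42 to 1.34 for Te, -0.85 to 0.9 for CT101 and -1.19 to 0.57 for Col-0, and those of LYK5 were -0.59 to 1.1 for Te, -0.51 to 1.18 for CT101 and -1.1 to 0.59 for Col-0. SOBIR1 had 0.21 to 1.75 for Te, -0.42 to 1.11 for CT101 and -0.66 to 0.87 for Col-0, with an edgeR adjusted p of 0.103 in Te. The Te difference of SOBIR1 was called with the compared libraries alone (0.98, adjusted p = 0.0035) and without CT101 control replicate 1 (0.98, adjusted p = 0.042) or Col-0 control replicate 2 (0.98, adjusted p = 0.035), all by edgeR. FRK1 had the widest intervals, -0.57 to 3.78 for Te, -1.47 to 1.91 for CT101 and -3.15 to 0.1 for Col-0. Among Te, CT101 and Col-0 no member was called by DESeq2 or by edgeR in the fit over all libraries, where edgeR called 0.321% of all genes in CT101 against Te, 0.954% in Te against Col-0 and 1.6% in CT101 against Col-0. The edgeR p before adjustment was under 0.05 for SOBIR1 (0.028) and FRK1 (0.0065) in Te against Col-0, for BIK1 (0.03) in CT101 against Col-0 and for no member in CT101 against Te. The block within each treatment changed this for CT101 against Col-0, where edgeR called EFR lower (-0.65, adjusted p = 0.014) and BIK1 higher (0.91, adjusted p = 0.012) in response.

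Other genes of the pathway came from lists of 63 loci, of which 62 could be tested and AT2G19230 could not. In Te, CT101, Col-0 and C24, 49, 46, 46 and 43 were called higher and 6, 7, 5 and 3 lower by edgeR. Of all tested genes 32%, 32.9%, 30% and 25.6% were called higher and 30.9%, 32.4%, 26.9% and 22.2% lower in that order. The median log2 fold changes of the 62 genes were 1.81, 1.54, 1.52 and 1.16. Against C24 controls, 2 of the 62 were higher and 30 lower in Te, 2 higher and 25 lower in CT101, and 3 higher and 22 lower in Col-0. Over all tested genes 12.4% were higher and 17.7% lower in Te, 6.18% higher and 10.4% lower in CT101, and 11.7% higher and 14.7% lower in Col-0.

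Of 19 other receptor genes 16, 15, 15 and 12 rose in Te, CT101, Col-0 and C24, and 3, 3, 3 and 2 fell. Of all tested genes 32%, 32.9%, 30% and 25.6% were called higher and 30.9%, 32.4%, 26.9% and 22.2% lower in that order. RLK7, a receptor kinase of secreted plant peptides, had log2 fold changes of 4.72 ± 0.28 in Te, 4.39 ± 0.28 in CT101, 4.54 ± 0.28 in Col-0 and 3.3 ± 0.26 in C24 (± SE, edgeR, adjusted p at most 1.91e-08). SD1-29, a lectin receptor kinase that senses bacterial hydroxy fatty acids, had 3.26 in Te, 3.02 in CT101, 3.3 in Col-0 and 2.93 in C24 (edgeR, adjusted p at most 4.08e-09). The genes that fell carry LysM domains, as CERK1 and LYK5 do. LYK2, LYK4 and LYM2 of the same list are also LysM genes, and they were called higher in Te and lower in no line. LYK3 fell by 1.47 in Te, 1.4 in CT101, 1.67 in Col-0 and 1.22 in C24 on the log2 scale (edgeR, adjusted p at most 0.000214). LYM1, whose protein binds bacterial peptidoglycan, fell by 0.61 in Te, 0.67 in CT101, 0.64 in Col-0 and 0.6 in C24 (adjusted p at most 0.00422). LYM3, of the same kind, fell by 0.76 for Te, 0.95 for CT101 and 0.74 for Col-0 and had -0.49 in C24 (edgeR, adjusted p = 0.0606).

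Of 7 co-receptor and BIR genes 4, 4, 4 and 4 rose in Te, CT101, Col-0 and C24, and 2, 3, 2 and 1 fell. Of all tested genes 32%, 32.9%, 30% and 25.6% were called higher and 30.9%, 32.4%, 26.9% and 22.2% lower in that order. For a list of 7 genes the counts that fell are near the shares called lower. SERK5, a close relative of BAK1, had log2 fold changes of 4.42 ± 0.25 in Te, 3.9 ± 0.24 in CT101, 2.97 ± 0.23 in Col-0 and 2.18 ± 0.22 in C24 (± SE, edgeR, adjusted p at most 2.42e-07). BIR2, a pseudokinase that holds BAK1 away from receptors at rest, had 3.05 in Te, 2.99 in CT101, 2.2 in Col-0 and 1.97 in C24 (edgeR, adjusted p at most 7.88e-08). SERK2, of the same family as BAK1, fell by 0.68 for Te, 0.89 for CT101 and 0.36 for Col-0 and had -0.33 in C24 (edgeR, adjusted p = 0.0521). SERK1, another member of that family, fell by 0.35 in CT101 (edgeR, adjusted p = 0.0305) and had -0.31 in Te, -0.25 in Col-0 and -0.19 in C24, none of them called. AT1G27190 fell by 1.14 in Te, 0.87 in CT101, 0.94 in Col-0 and 0.46 in C24 (edgeR, adjusted p at most 0.00658).

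Of 15 receptor-like cytoplasmic kinase genes 12, 12, 11 and 12 rose in Te, CT101, Col-0 and C24, and 1, 1, 0 and 0 fell. Of all tested genes 32%, 32.9%, 30% and 25.6% were called higher and 30.9%, 32.4%, 26.9% and 22.2% lower in that order. PBL1, whose exons are the best match to those of BIK1 (85.8% identity over 127 bases), had log2 fold changes of 2.12 ± 0.12 in Te, 2.18 ± 0.12 in CT101, 2.2 ± 0.12 in Col-0 and 1.86 ± 0.12 in C24 (± SE, edgeR, adjusted p at most 3.38e-09). PBL2 had 4.45 in Te, 4.04 in CT101, 3.85 in Col-0 and 2.24 in C24 (edgeR, adjusted p at most 5.48e-07). AT3G01300 fell by 0.35 for Te and 0.5 for CT101 (edgeR, adjusted p = 0.0495 and 0.00622) and had -0.21 in Col-0 and -0.22 in C24, neither called. Of 11 G protein and negative regulator genes 9, 8, 9 and 9 rose and none fell, beside the same shares of all tested genes. XLG2, an extra-large G protein that acts with FLS2 and BIK1, had 5.02 in Te, 5.32 in CT101, 4.0 in Col-0 and 3.07 in C24 (edgeR, adjusted p at most 4.36e-07). CPK28, a calcium-dependent kinase that promotes BIK1 turnover, had 3.18 in Te, 2.81 in CT101, 2.85 in Col-0 and 1.91 in C24 (edgeR, adjusted p at most 4.67e-07).

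Of 5 further marker genes of early flagellin signalling 4, 3, 5 and 3 rose in Te, CT101, Col-0 and C24, and none fell. Of all tested genes 32%, 32.9%, 30% and 25.6% were called higher and 30.9%, 32.4%, 26.9% and 22.2% lower in that order. NHL10 averaged 129.9 ± 40.3 CPM under ozone and 0.373 ± 0.516 CPM in controls of Te, and 257.7 ± 150.5 CPM under ozone and 5.72 ± 0.567 CPM in controls of C24. Like FRK1, it had its highest control mean in C24. CYP81F2, a cytochrome P450 of indole glucosinolate metabolism, had log2 fold changes of 4.82 ± 0.33 in Te, 4.87 ± 0.34 in CT101, 5.76 ± 0.33 in Col-0 and 4.13 ± 0.3 in C24 (± SE, edgeR, adjusted p at most 9.4e-09). Of 5 tested relatives of EFR and FRK1 4, 4, 2 and 3 rose, where 32%, 32.9%, 30% and 25.6% of all tested genes were called higher, so the Col-0 count is near that share. AT3G47570, of the EFR subfamily, had 1.67 in Te, 1.26 in CT101, 2.0 in Col-0 and 1.14 in C24 (edgeR, adjusted p at most 5.19e-07), and AT3G47090, of the same subfamily, had 2.32 in Te, 2.07 in CT101, 2.55 in Col-0 and 1.39 in C24 (adjusted p at most 4.12e-05).

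**Figure D4:**
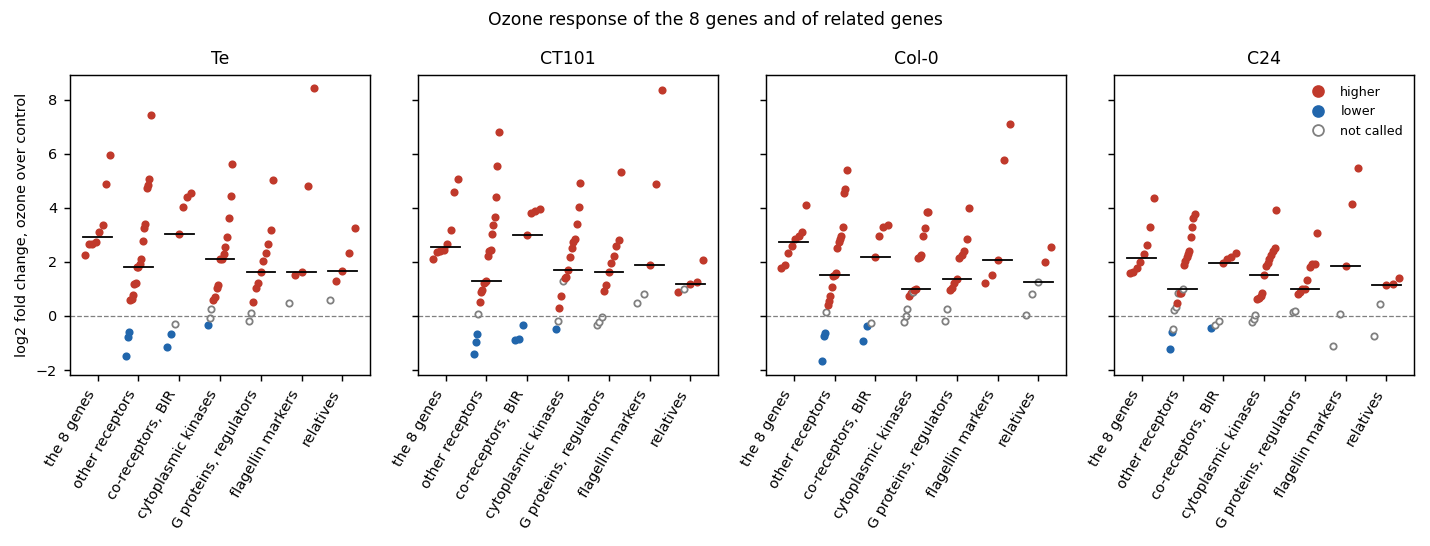
Log2 fold change of ozone over control for the 8 genes and the 62 tested related genes by list, 1 panel per line. Each point is a gene (red, called higher; blue, called lower; open grey, not called) and black lines are list medians. All 8 genes are red in each panel, and blue points stand among the other receptors and the co-receptors in each panel.

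Over the 8 group means of log2 CPM, which share the ozone step in every line, BAK1 and BIK1 had the most alike profiles among the members (r = 0.998) and EFR and FRK1 the least (r = 0.811). LYK5 and SOBIR1 had r = 0.983, and SOBIR1 and FRK1 had r = 0.97. The tested gene outside the 8 with the closest profile was AGK2 for FLS2 (r = 0.998), ASA1 for EFR (0.997), WAKL10 for CERK1 (0.999) and VSR4 for LYK5 (0.998). For BAK1 it was AT2G20110 (0.9996), for BIK1 ABCB6 (0.9995), for SOBIR1 AT2G25260 (0.997) and for FRK1 BIP2 (0.999). These values describe 8 points with no test.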

How the data were processed

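Each library has 1 deposited table of whole-number read counts by locus. The submitters' processing notes name FastQC, Bowtie2, SAMtools, HTSeq and the build TAIR10; which versions, in what order and with which strand option is not given in the sources used here. Reads of all lines were counted on that 1 reference, and what sequence differences between lines do to the counts was not tested. The kit (TruSeq RNA v2, per the labels) does not mark strand. Depth was 13633768 to 25789925 counts per library.

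Loci were kept with filterByExpr (minimum count 10, minimum total 15) and scaled with TMM in edgeR 4.0.16 (R 4.3.3, limma 3.58.1). A robust quasi-likelihood fit over all 24 libraries in 8 groups gave 2-sided tests, adjusted by Benjamini-Hochberg over 20554 genes. The code was tested on simulated data. Log2 CPM had a prior count of 2. Replicates differed beyond sampling noise (chi-square per degree of freedom 6.96 to 81.5). Exon lengths and sequences came from NCBI RefSeq, which held 31900 of the 32678 loci. Copies were searched with BLAST+ 2.17.0 (at least 50 bases and 95% identity). Plots used matplotlib 3.10.9.

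The 8 genes, the related lists and the tests were chosen with earlier results of these data known. From each related list the text names the 2 called genes with the smallest adjusted p in any line and all called genes that moved against the majority of the list; for each of the 8 it names the gene of closest profile. Alternatives were RLE factors, library totals, no filter on low counts, DESeq2 1.42.0, the replicate number as a block over all libraries or within each treatment, the compared libraries alone, each library left out and, added after values were seen, the 4 ozone libraries of replicate 2 left out.

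The labels number the replicates and name no shared batch. Deviations of same-numbered libraries of equal treatment correlated above 0.1 between all pairs of lines except the CT101 and Col-0 controls (lowest 0.0186). Between ozone and control libraries they did so in CT101 and C24, and in Te and Col-0 the lowest values were 0.0404 and 0.049.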

Additional observations from a re-analysis of the deposited data

Results flagged for a closer look

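In 6 cases the test of the difference itself found that the ozone response of a member differed between lines, each time with the larger response outside C24. Over all tested genes 7.77% for Te, 7.09% for CT101 and 2.86% for Col-0 were called with a higher response than in C24. These made up 81.1%, 73.1% and 85% of the genes called in either direction, so this direction is not particular to the members. In Te the log2 difference from the C24 response was 1.04 for CERK1, 1.06 for BAK1 and 1.60 for BIK1. In CT101 it was 0.88 for BAK1 and 1.80 for BIK1, and in Col-0 it was 1.51 for EFR. Each of these calls except that of BAK1 in Te was lost in some alternative, as given above. Replicate 2 was the lowest ozone library of its group in 22 of 32 combinations of a member and a line. With the ozone libraries of replicate 2 left out, all 8 genes were still called higher in each line.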

How the results depend on the processing

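All 992 alternative values of the ozone response of the 8 genes kept their direction and stayed called, with a highest adjusted p of 0.018 (FRK1 in Col-0, compared libraries alone). Of 4064 values over all comparisons 42 changed sign, and none of these belongs to the 51 called results. Library totals in place of TMM moved the median of all genes by -0.11, -0.14, -0.11 and -0.13 in the ozone responses of the C24, Te, CT101 and Col-0 lines and by -0.13 in Te minus C24 controls. They moved the share of called genes that was higher to 24.8%, 25.6% and 33.5% in the controls of Te, CT101 and Col-0 against C24, where TMM gave 41.2%, 37.3% and 44.4%, and to 61.2% in the CT101 minus Col-0 response, where TMM gave 50.2%.

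The replicate block gave 2 members for Te minus Col-0 controls, 1 for CT101 minus Col-0 controls, 4 for the CT101 minus C24 response and 2 for the Col-0 minus C24 response. Over all genes it gave 3041, 3914 and 1156 for the Te, CT101 and Col-0 responses against C24, 120 for CT101 minus Te, 356 for Te minus Col-0 and 857 for CT101 minus Col-0. The replicate block within each treatment gave 7 members for Te minus C24, 2 for Te minus Col-0 and 1 for CT101 minus Col-0 controls, and for the responses 4 for CT101 and 4 for Col-0 against C24 and 2 for CT101 minus Col-0. The last were EFR (-0.65) and BIK1 (0.91), and the control call was EFR (0.69). Over all genes it gave 6285 and 8365 for CT101 and Col-0 against C24 controls and 2171, 5500 and 5240 for CT101 minus Te, Te minus Col-0 and CT101 minus Col-0 controls. For the responses it gave 4814, 6012 and 2516 against C24 and 330, 955 and 2793 for the same 3 pairs. In Te and CT101 minus Col-0 controls this fit called no larger a share of the 8 members than of all 20554 tested genes. For Te minus C24 controls 6189 genes were called in the main fit and at most 9100 in any alternative. The main counts were 3410 and 5418, 1075, 3251 and 3220 for controls and 1970, 1994, 692, 66, 196 and 329 for responses. The replicate block over all libraries changed no ozone call of the 8 genes. With it 50, 47, 47 and 44 of the 62 related genes were called higher in Te, CT101, Col-0 and C24. The block within each treatment gives no ozone response.

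With the compared libraries alone, 2 members were called for Te minus Col-0 and 1 for CT101 minus Col-0 controls, 5 for the Te and 0 for the CT101 response against C24, and over all genes 686 and 384 for the CT101 and Col-0 responses against C24, 41 for CT101 minus Te and 190 for CT101 minus Col-0. DESeq2 and library totals each gave 2 members for the Col-0 minus C24 response, and DESeq2 gave 116, 367 and 617 genes for CT101 minus Te, Te minus Col-0 and CT101 minus Col-0 responses. Without the ozone libraries of replicate 2 the controls gave 2 and 1 members for Te and CT101 minus Col-0, and 1067, 297 and 701 genes were called for the Col-0 minus C24, Te minus Col-0 and CT101 minus Col-0 responses. The sign changed for FLS2 in the CT101 minus C24 response (0 with the compared libraries alone and -0.12 without these libraries), and without them for FRK1 in the same response (-0.07) and SOBIR1 in the Col-0 minus C24 response (-0.05). The cause of these changes was not tested.

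With 1 library left out at a time, members called ranged over 1 to 4 (CT101 minus C24 controls), 0 to 1 (CT101 minus Te, Te minus Col-0 and CT101 minus Col-0 controls), 1 to 5 (Te response), 1 to 4 (CT101 response) and 0 to 2 (Col-0 response, all against C24). All genes called ranged over 2183 to 3759 for CT101 minus C24 controls. For responses they ranged over 1228 to 2334, 816 to 3097 and 369 to 976 for Te, CT101 and Col-0 against C24, 27 to 84 for CT101 minus Te, 109 to 285 for Te minus Col-0 and 170 to 511 for CT101 minus Col-0. Uncalled differences whose sign changed ranged, for controls, over -0.47 to 0.14 (FLS2, CT101 minus C24), -0.24 to 0.30 (FLS2, Col-0 minus C24), -0.11 to 0.18 (EFR), -0.03 to 0.13 (BIK1), -0.01 to 0.09 (BAK1) and -0.02 to 0.40 (LYK5, all CT101 minus Te), -0.18 to 0.06 (CERK1), -0.47 to 0.06 (LYK5) and -0.62 to 0.05 (SOBIR1, all Te minus Col-0), and -0.44 to 0.16 (FLS2), -0.31 to 0.22 (LYK5), -0.07 to 0.69 (SOBIR1) and -1.86 to 0.10 (FRK1, all CT101 minus Col-0). For responses they ranged over -0.23 to 0.38 (FLS2) and -0.30 to 0.90 (FRK1, both CT101 minus C24), -0.48 to 0.06 (LYK5) and -0.09 to 0.57 (SOBIR1, both Col-0 minus C24), -0.17 to 0.31 (LYK5) and -0.11 to 0.40 (BIK1, both CT101 minus Te), -0.06 to 0.18 (CERK1, Te minus Col-0) and -0.23 to 0.53 (SOBIR1, CT101 minus Col-0).

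FRK1 had 20 counts in all in the Te controls and the largest standard errors of the 8 genes.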
